A study of Mus musculus with 72 samples.

Results

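Translational efficiency was compared between everolimus-treated and vehicle-treated mice carrying a B-lymphoma. It is the level of a gene's RNA on polysomes relative to its level in cytoplasmic input RNA, each scaled to its library. It was measured as the log2 ratio of the polysomal to the input RNA of the same mouse, for the genes counted in both fractions, so 24 of the 72 samples of the series are described here. Of 29750 genes listed in both fractions, 16421 passed a filter on low counts and were tested. The mice were C57BL/6 animals transplanted with Eμ-Myc lymphoma cells, in which an immunoglobulin enhancer drives a Myc transgene in the B lineage. The cells carry an MSCV Gfp vector and came from 1 clone, so the tumours of every group share that origin.

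On day 10 after transplantation, 6 mice received everolimus at 5 mg/kg and 6 received vehicle, and lymph nodes were taken 2 h later. A further 6 mice received CX5461 at 35 mg/kg with everolimus at 5 mg/kg, and 6 received CX5461 alone at 35 mg/kg. These are used where everolimus is set beside the other treatments. Polysomal RNA was taken from gradient fractions holding at least 4 ribosomes. Totals ran from 17.7 to 24.7 M counts in everolimus input, 15.4 to 20.3 M in everolimus polysomal RNA, 18.8 to 21.5 M in vehicle input and 11.5 to 19.6 M in vehicle polysomal RNA. Lymph nodes also hold host cells, and fewer cells of a type and less RNA per cell cannot be told apart in such bulk samples. The B cell identity genes summed to 5400 to 7620 CPM (counts scaled to the library total) in everolimus input and 6010 to 7350 CPM in vehicle input, with none of the genes at 0 in all of these mice. Macrophage and myeloid markers summed to 995 to 1520 CPM in everolimus input and 1170 to 1270 CPM in vehicle input.

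Everolimus is a rapamycin analogue that inhibits the kinase complex mTORC1, which links growth signals to protein synthesis. Active mTORC1 phosphorylates the eIF4E-binding proteins and, through S6 kinases, the ribosomal protein S6. The mRNAs most dependent on it carry a 5′ terminal oligopyrimidine (TOP) tract, a run of C and U that begins with the capped C, and they encode the ribosomal proteins, elongation factors and other parts of the translation machinery. The protein LARP1 binds such starts when mTORC1 is inhibited and holds the mRNAs out of polysomes.

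Libraries of some mice stood apart before any comparison. Lars2 and Yam1 took 26.2%, 19.8% and 10.1% of the polysomal counts of vehicle mice 2, 5 and 6, against at most 6.63% in everolimus polysomal libraries. Gm26870 and Gm10800 took 18.4% of the input counts of everolimus mouse 2. They took 23.27% and 14.98% of the input counts of CX5461 mice 4 and 6. Lars2 and Yam1 took 10.8% of the polysomal counts of CX5461 mouse 6. The input libraries of everolimus mice 1 and 3 were the most alike of all same-group pairs, with a median variance of 1.29 times the sampling variance, and were kept as 2 samples. Some values are also given without the mice rich in Lars2 and Yam1 (Lars2-rich below) or in Gm26870 and Gm10800 (Gm26870-rich). Both sets include the CX5461 mice named for them, which share the fit. These values stand beside a result or with the effects of the processing, and not for every value. A value given alone may therefore have moved too.

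No gene passed the threshold for a change in translational efficiency. With the quasi-likelihood test of edgeR and Benjamini-Hochberg adjustment over all 16421 genes, 0 genes had an adjusted p under 0.05 (0.0%), and the smallest adjusted p was 0.17. At an unadjusted p under 0.05, 615 genes were higher in everolimus mice (3.75%) and 459 were lower (2.8%). DESeq2 called 6 genes, all lower in everolimus mice, and limma on the per-mouse ratios called 0. The 6 were Rps12, Rps19, Rps24, Rps12-ps9, Gm10036 and Gm8172, the last 3 annotated as pseudogenes. A test without the filter on low counts called 78 genes, 24 higher and 54 lower, of which 2, Rps24 and Rps12-ps9, were also among those of DESeq2. All 78 pass that filter, and 58 of them average at least 2 log2 CPM in both fractions. They hold 23 snRNA and 13 snoRNA or scaRNA genes, 10 pseudogenes, and Lars2, Yam1, Gm26870 and Gm10800, the genes that fill the libraries that stood apart. Why that test calls more genes was not tested.

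The distribution over genes was narrow and nearly centred on 0. The median log2 change, everolimus minus vehicle, was 0.016, the quartiles were -0.088 and 0.11, and the 5th and 95th percentiles were -0.37 and 0.39. Of all genes tested, 9025 were higher and 7396 lower. The width was smaller among well-counted genes. In the 10653 genes that averaged at least 2 log2 CPM in both fractions (called well-counted below), the quartiles were -0.056 and 0.086, and 12 genes lay above 0.5 and 28 below -0.5. Among the 7234 genes of at least 4 log2 CPM, 2.53% differed by more than 0.25, 45 of them higher and 138 lower, against a median standard error of 0.085. Because each library is scaled to its own total, a change shared by all mRNAs drops out of these ratios, and only changes relative to other genes are seen.

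**Figure D1:**
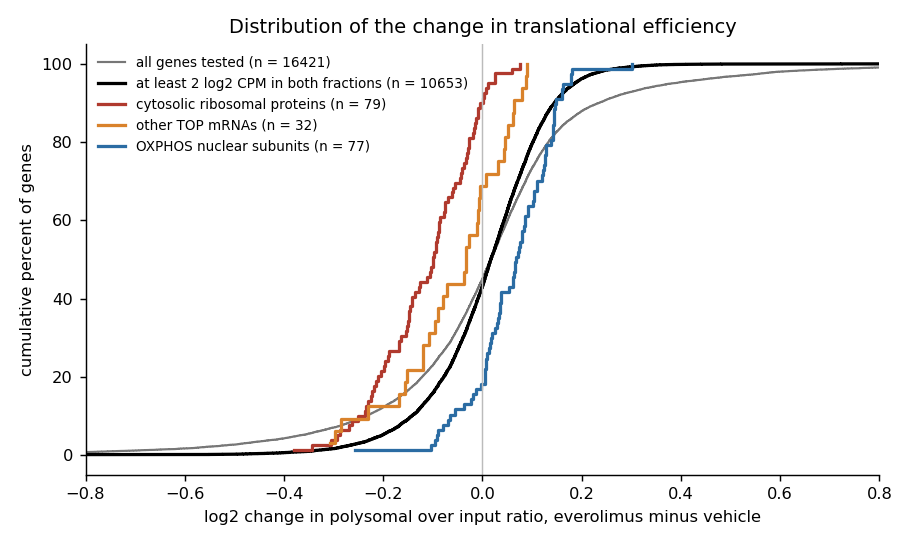
Cumulative percent of genes (vertical axis) against the log2 change in the polysomal over input ratio, everolimus minus vehicle (horizontal axis). Cytosolic ribosomal proteins lie to the left of all genes with a median of -0.099, other TOP mRNAs less so at -0.034, and nuclear OXPHOS subunits to the right at 0.068.

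The spread of the ratios within a mouse was alike in both groups. The interquartile range over genes of log2 polysomal over input RNA was 0.571, 0.597 and 0.7 (lowest, median and highest) in the 6 everolimus mice and 0.561, 0.618 and 0.714 in the 6 vehicle mice. The means were 0.621 ± 0.0546 and 0.624 ± 0.0531 (SD, n = 6 each, everolimus and vehicle), and the difference of -0.0028 had an exact two-sided permutation p of 0.924. The smallest p that 6 against 6 mice can give is 0.00216. The Spearman correlation over genes of polysomal with input RNA averaged 0.977 ± 0.00383 in everolimus mice and 0.979 ± 0.00323 in vehicle mice (exact permutation p = 0.45, n = 6 each). Adjusted over these 2 measures, the p-values were 0.924 and 0.9. The groups overlapped on both measures.

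The cytosolic ribosomal protein genes, which encode the subunits of the ribosome, leaned lower. All 79 genes of the list were tested, and 71 had a lower ratio in everolimus mice. None passed the adjusted threshold. Of the 79, 24 were lower at an unadjusted p under 0.05 and 0 were higher, which is 30.4% lower, against the 2.8% of all genes. The median log2 change was -0.099, equal to -6.65%, and members ran from -0.38 to 0.077. The list was picked with earlier results of these data known, so its direction is a description.

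The shift lay in the polysomal fraction more than in the input. Across the 79 genes, the median log2 change of polysomal RNA was -0.17, and that of input RNA was -0.045. The 32 genes of the small (40S) subunit had a median change of -0.12, with 12 lower at an unadjusted p under 0.05, and the 47 of the large (60S) subunit had -0.089, also with 12. Without the mice rich in Lars2 and Yam1 reads, the medians were -0.044 (6 genes lower at that p) and -0.042 (1 gene) for the small and the large subunit. The count for the large subunit was 4 without everolimus mouse 2, 5 without vehicle mouse 6, 6 without everolimus mouse 6 and 7 without vehicle mouse 1, 3 or 5. The difference between the subunits was not tested.

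Mouse by mouse, the ribosomal protein genes did not separate the groups. Their median ratio, relative to the median of all genes of that mouse, was -0.763, -0.773, -0.771, -0.484, -0.872 and -0.848 in everolimus mice 1 to 6. It was -0.625, -0.558, -0.538, -0.871, -0.52 and -0.539 in vehicle mice 1 to 6. In both groups 5 mice lay close together. Everolimus mouse 4 lay above every vehicle mouse, and vehicle mouse 4 lay beside the lowest everolimus mouse. Atf4 and Trib3, whose RNA was lower under everolimus, were at 6.28 and 0.606 log2 CPM in the input of everolimus mouse 4 and at 7.25 and 1.38 log2 CPM in that of vehicle mouse 4, each within its own group. In polysomal RNA the same 2 genes were at 6.13 and 0.256 log2 CPM in everolimus mouse 4 and 7.31 and 1.62 log2 CPM in vehicle mouse 4, again on the side of their labels. Without everolimus mouse 4 the list median was -0.149, without vehicle mouse 4 it was -0.144, and without the mice rich in Lars2 and Yam1 reads, which leaves vehicle mice 1, 3 and 4, it was -0.043, with 50 of the 79 genes lower and 7 of them at an unadjusted p under 0.05. A fit without the mouse term had 8 genes lower at that p.

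**Figure D2:**
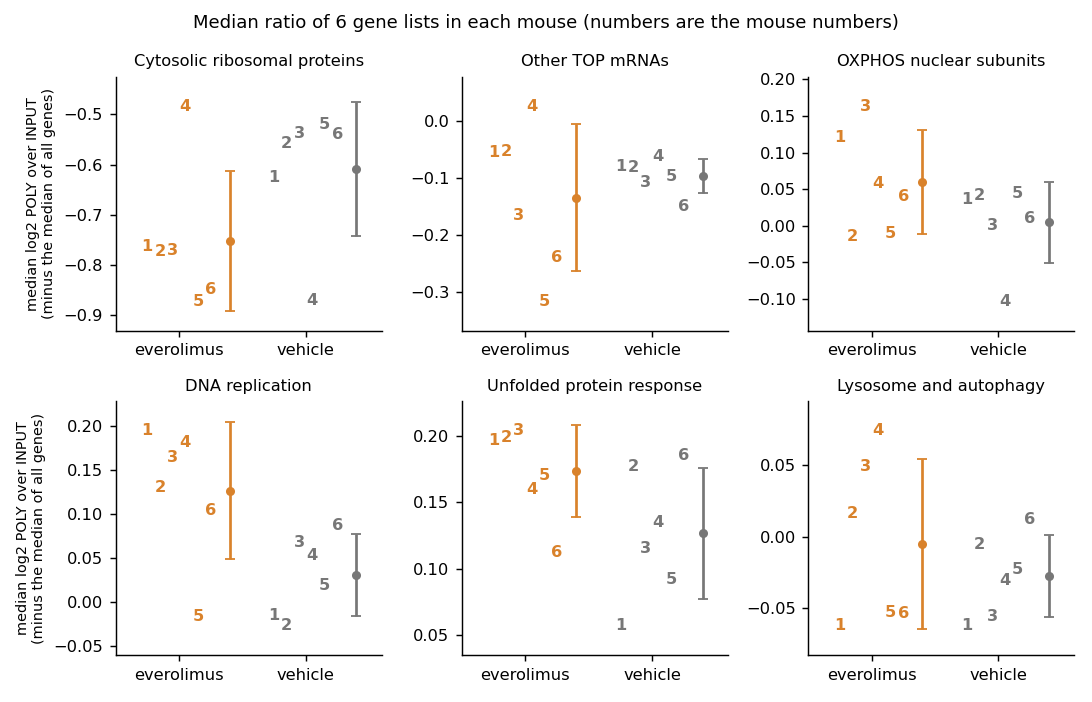
Median log2 polysomal over input ratio of 6 gene lists in each mouse, minus the median of all genes in that mouse (vertical axes), for everolimus (left) and vehicle (right) mice. Digits are mouse numbers, and dots with bars are the mean ± SD of 6 mice. In the ribosomal protein panel, everolimus mouse 4 (-0.484) and vehicle mouse 4 (-0.871) lie away from the other 5 of their group.

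Small subunit genes had the lowest values of the list. Rps24 (chromosome 14, 24487125 to 24496959, plus strand, GRCm38) encodes a 40S protein. Its ratio was -0.322, -0.138 and 0.244 (lowest, median and highest) in everolimus mice and 0.186, 0.298 and 0.355 in vehicle mice. Of the 6 everolimus mice, 5 lay below every vehicle mouse. The log2 change was -0.38 ± 0.0945 (SE), with an adjusted p of 0.379 by edgeR. Rps12 (chromosome 10, 23785183 to 23787275, minus strand) had ratios of -1.05, -0.966 and -0.623 in everolimus mice and -0.78, -0.528 and -0.457 in vehicle mice. It differed by -0.34 ± 0.0772 (SE) with an adjusted p of 0.171, and the highest everolimus value was that of mouse 4. Rps19 (chromosome 7, 24884371 to 24889806, plus strand), the gene mutated most often in human Diamond-Blackfan anaemia, differed by -0.31 ± 0.0716 (SE), with an adjusted p of 0.218.

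Rps6 encodes the S6 protein that S6 kinases phosphorylate, and lies on chromosome 4 (86854660 to 86857412, minus strand). Its ratio was -0.476, -0.355 and -0.181 in everolimus mice and -0.123, -0.0784 and -8.43e-05 in vehicle mice, so the groups did not overlap. The log2 change was -0.25 ± 0.0668 (SE), made of -0.27 in polysomal and -0.0072 in input RNA, and the adjusted p was 0.495. Non-overlap in this direction was seen for 2 of the 79 genes and for 25 of all genes tested (0.152%), against 51 genes without overlap on the higher side (0.311%). At the other end of the list Rpl10 was at 0.077 and Rpl32 at 0.011, each with a standard error over 0.1 (0.102 and 0.114).

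Processed pseudogenes of ribosomal proteins share sequence with their parents, so their counts may hold reads of the parent gene and are not separate evidence. Of 152 tested genes named as such pseudogenes, 131 were lower in everolimus mice, with a median of -0.16. At an unadjusted p under 0.05, 42 were lower (27.6%, against 2.8% of all genes). Among the 10 well-counted genes with the smallest p on the lower side, 4 carry the names of ribosomal protein pseudogenes (Rps12-ps9 at -0.5, Rps6-ps3 at -0.29, Rps18-ps1 at -0.39 and Rps6-ps1 at -0.38) and Tpt1-ps6 is named for a pseudogene of Tpt1 (-0.48). Another, Rps12l1 (-0.36), is named as a relative of Rps12 and annotated as a processed pseudogene. The same caution holds for the protein-coding members. Without the Lars2-rich mice all 10 were still below 0, at 0.658 to 1.15 times these values.

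The TOP tract itself was looked for at the annotated transcription starts of RefSeq (GRCm38.p6), as a C at the first transcribed base followed by at least 4 bases that are C or T, on the transcribed strand alone. Of 32851 annotated starts, 2.51% hold it. Counted by gene, 3.02% of the 10256 tested genes with an entry hold it at any of their starts. Of the 111 genes of the ribosomal protein list and the list of other TOP mRNAs, 81 have an entry, and 18 of these (22.2%) hold the tract at any start. The starts below are shown because they let the printed tracts be read beside the changes of their genes. Each line gives 10 bases before and 20 bases from the annotated start, 5′ to 3′, with the tract in capitals. They lie for Rps6 at chr4:86857348-86857377 (minus strand), for Rps18 at chr17:33955646-33955675 (minus strand), for Rps15a at chr7:118116128-118116157 (minus strand), for Eif3f at chr7:108934405-108934434 (plus strand). The others lie for Rpl15 at chr14:18270967-18270996 (minus strand), for Fau at chr19:6057937-6057966 (plus strand), for Rpl38 at chr11:114668570-114668599 (plus strand), for Rps12 at chr10:23787190-23787219 (minus strand).
Rps6: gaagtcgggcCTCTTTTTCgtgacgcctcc
Rps18: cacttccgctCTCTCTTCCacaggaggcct
Rps15a: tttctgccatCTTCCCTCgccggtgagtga
Eif3f: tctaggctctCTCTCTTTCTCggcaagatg
Rpl15: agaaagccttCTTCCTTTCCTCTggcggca
Fau: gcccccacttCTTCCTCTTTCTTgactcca
Rpl38: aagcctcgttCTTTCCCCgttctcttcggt
Rps12: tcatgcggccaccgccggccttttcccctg

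Rps6, Rps18, Rps15a and Eif3f, the last a subunit of initiation factor eIF3, were at -0.25, -0.2, -0.27 and -0.3 (log2 change in ratio, everolimus minus vehicle). Rpl15 and Fau, with tracts of 13 bases, were at -0.028 and -0.033, and Rpl38 was at 0.0002. The start given for Rps12, with a change of -0.34, has no such tract at its first base, although C and T runs follow within the window. Eif3f, Rps18, Rps15a, Rpl15, Fau and Rpl38 were chosen for printing after their values were seen. The listed genes with such a start had a median change of -0.084 (18 genes), and the listed genes with another annotated start had -0.11 (63 genes). Without the mice rich in Lars2 and Yam1 reads these were -0.00076, with 9 genes higher and 9 lower, and -0.043. Outside both lists, 292 genes with such a start had a median of 0.0055, against 0.02 for the 9946 genes with another start. Without the Lars2-rich mice they had 0.0198 and 0.0252, and without the Gm26870-rich mice -0.0052 and 0.0023. A match is a description of the annotated start and not of the capped end used in these cells.

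Other TOP mRNAs, among them elongation factors and the poly(A)-binding protein, were lower by less. Of 32 genes, 22 were lower and 5 of these at an unadjusted p under 0.05 (15.6%, against 2.8% of all genes), with a median of -0.034. The median depended on single mice: it was -0.0059 without everolimus mouse 5, with 17 genes lower, -0.0217 without everolimus mouse 6, -0.0216 without vehicle mouse 5, -0.0618 without everolimus mouse 1 and -0.0543 without everolimus mouse 4. Without the mice rich in Lars2 and Yam1 reads it was -0.006, with 17 lower, 2 of them at that p, and 1 higher at it, and without the mice rich in Gm26870 and Gm10800 reads it was -0.0589. Tpt1, which encodes the translationally controlled tumour protein, was lowest at -0.31 ± 0.0991 (SE, adjusted p = 0.591 by edgeR). Pabpc1, the cytoplasmic poly(A)-binding protein, had ratios of -0.127, -0.0272 and 0.255 in everolimus mice and 0.198, 0.313 and 0.504 in vehicle mice. Its change was -0.29 ± 0.116 (SE, adjusted p = 0.717 by edgeR), with 4 everolimus mice below every vehicle mouse. The elongation factor genes Eef2 and Eef1a1 were at -0.072 ± 0.0801 and -0.034 ± 0.0977 (SE). Eef2 was at -0.00418 without the Lars2-rich mice, and Eef1a1 at -0.106 without the Gm26870-rich mice. Npm1, a nucleolar chaperone with a TOP mRNA, was at -0.11 ± 0.0887 (SE). Eif3l, an eIF3 subunit, was highest at 0.09 ± 0.0722 (SE).

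Genes that read out the pathway by other routes differed little in ratio. Among 24 mRNAs described as sensitive to eIF4E, 10 were higher and 14 lower, with a median of -0.013. At an unadjusted p under 0.05, 1 was higher (4.17%, against 3.75% of all genes). At the ends of that list, among well-counted genes, Cdk2, a cell cycle kinase, was at 0.14 ± 0.0589 (SE) and Xiap, an inhibitor of caspases, at -0.29 ± 0.155 (SE). Of the fixed genes, Myc was at 0.008 ± 0.0729, Mcl1, an anti-apoptotic BCL2 relative, at -0.12 ± 0.0865 (-0.028 without the Lars2-rich mice), Odc1, the first enzyme of polyamine synthesis, at -0.043 ± 0.0866, and Ccnd3, a G1 cyclin, at -0.082 ± 0.0905 (SE). The 44 genes of the mTORC1 pathway had a median of 0.032, and Mtor itself was at 0.15 ± 0.0773, Larp1 at -0.02 ± 0.06 and Eif4ebp1 at 0.0033 ± 0.1 (SE). Lamtor3 and Rragd, parts of the lysosomal docking site of mTORC1, were its highest and lowest well-counted members at 0.2 and -0.2. Without the Lars2-rich mice Lamtor3 was at 0.0659, Rragd at -0.334 and Mtor at 0.233.

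mRNAs with upstream open reading frames, whose translation rises when eIF2 is phosphorylated, leaned lower. Of 20 such genes 15 were lower, with a median of -0.055, and 0 passed an unadjusted p under 0.05 in either direction. The median ratio of the list was 0.0371 to 0.28 in everolimus mice and 0.198 to 0.31 in vehicle mice, and 5 everolimus mice lay below all vehicle mice. Atf5, a stress transcription factor, was the lowest well-counted member at -0.2 ± 0.137 (SE), and Tob1, an antiproliferative regulator of deadenylation, was highest at 0.11 ± 0.109 (SE).

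Some genes changed in abundance under everolimus in both fractions. By edgeR in each fraction alone, with Benjamini-Hochberg adjustment, 17 of 16033 genes were called in the input (0.106%) and 23 of 15374 in the polysomal RNA (0.15%). These hold 9 genes called in both, 4 higher and 5 lower. Trib3, a pseudokinase induced by ATF4, fell by 1.64 in the input (adjusted p = 0.00052) and by 1.49 in polysomal RNA (adjusted p = 0.00081), with a ratio change of 0.16 ± 0.208 (SE). Atf4, the stress transcription factor, fell by 0.62 and 0.71 (adjusted p = 0.00263 and 0.00975), with a ratio change of -0.08 ± 0.076. Hk2, which starts glycolysis, fell by 0.48 and 0.42 (adjusted p = 0.00188 and 0.00391), with 0.06 ± 0.074 (0.188 without the Lars2-rich mice). Ratio changes of the 9 genes ran from -0.127 to 0.158, with a smallest unadjusted p of 0.225. A call in both fractions favours genes that change alike in both, so small ratio changes are partly set by this choice. For Atf4 the 95% interval of the ratio change, -0.229 to 0.0687, excludes a fall of the size seen in the input.

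Of the 31 genes called in either fraction, 5 had an unadjusted p under 0.05 for the ratio, 3 higher and 2 lower. Over all genes tested, 3.75% were higher and 2.8% lower at that p. The 31 were picked on the counts that also form the ratio, so their ratios are no separate test. Eno3, Ppp1r3c, Igkv12-44 and Lrrc48, among these 5, were called in the input alone. Their ratio changes were opposite in sign to their input changes. Eno3, the muscle form of enolase, fell by 0.78 in the input (adjusted p = 0.0226), was at -0.40 in polysomal RNA (a ratio change of 0.38, and 0.2 without the Lars2-rich mice), and had ratios of -0.382, -0.0554 and 0.0516 in everolimus mice and -0.806, -0.442 and -0.275 in vehicle mice. Of the 41 ATF4 targets tested, the median change was -0.23 in the input and -0.2 in polysomal RNA, and 0.038 in ratio. Asns, asparagine synthetase, was highest among the well-counted targets (0.24 ± 0.0868, SE) and Cebpg, a partner of ATF4, lowest (-0.23 ± 0.106, SE). Neither passed the adjusted threshold.

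**Figure D3:**
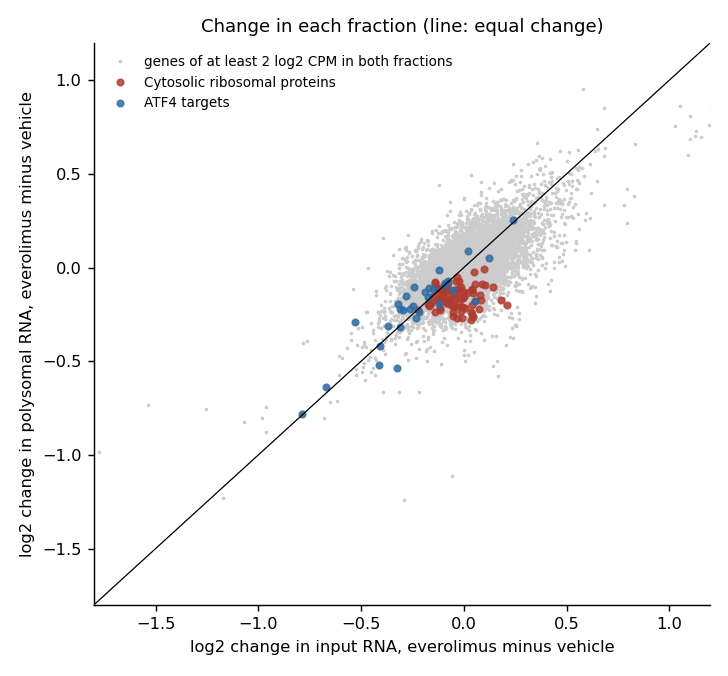
Log2 change in polysomal RNA (vertical axis) against log2 change in input RNA (horizontal axis), everolimus minus vehicle, for genes of at least 2 log2 CPM in both fractions. ATF4 targets follow the line of equal change (medians of -0.195 and -0.234), and ribosomal protein genes lie below it (medians of -0.165 and -0.045).

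On the higher side, the 10 well-counted genes with the smallest p included Galc, Scarb2 and Npc1, which encode lysosomal proteins, and none of the 10 passed the adjusted threshold. Galc, the lysosomal galactosylceramidase (chromosome 12, 98202294 to 98259459, minus strand), had ratios of 0.246, 0.448 and 0.754 in everolimus mice and -0.256, -0.0833 and 0.0749 in vehicle mice. All 6 everolimus mice lay above all vehicle mice, and the change was 0.57 ± 0.125 (SE, adjusted p = 0.17 by edgeR). Scarb2, a lysosomal membrane protein, had ratios of 0.0613, 0.079 and 0.11 in everolimus mice and -0.32, -0.211 and -0.0892 in vehicle mice, a change of 0.3 ± 0.0778 (SE, adjusted p = 0.451). Npc1, the lysosomal cholesterol exporter, was at 0.31 ± 0.0724 and Slc9a7, a sodium and proton exchanger of the Golgi, at 0.34 ± 0.0714 (SE), both without overlap between the groups.

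Tmem209, a membrane protein gene (chromosome 6, 30479053 to 30509783, minus strand), had the smallest p on the higher side. Its ratio was -0.301, -0.149 and 0.0238 in everolimus mice and -0.558, -0.47 and -0.342 in vehicle mice, a change of 0.31 ± 0.0647 (SE, adjusted p = 0.17). Dnajc16, Aplp2, Rpa3, Mmp3 and Mrc1 completed the 10 at 0.32, 0.24, 0.31, 0.41 and 0.28. All 10 were higher without the mice rich in either kind of read, at 0.923 to 1.23 times the values given when the Lars2-rich mice were left out. Mrc1, the mannose receptor, and Mmp3, a matrix metalloproteinase, are expressed by macrophages and stromal cells. Macrophage and myeloid markers summed to 1560 to 1780 CPM in everolimus polysomal RNA and 1100 to 1530 CPM in vehicle polysomal RNA, and stromal and endothelial markers to 2000 to 3110 CPM and 1520 to 2370 CPM in everolimus and vehicle polysomal RNA. Of the other marker lists, B cell identity genes summed to 7780 to 8870 CPM in everolimus polysomal RNA and 6150 to 8300 CPM in vehicle polysomal RNA. T cell markers summed to 186 to 238 CPM (median 226) and 158 to 269 CPM (median 195) in everolimus and vehicle polysomal RNA. Medians of erythroid and platelet markers were 1380 and 1600 CPM, and those of NK and cytotoxic markers 14.2 and 14.4 CPM, in everolimus and vehicle polysomal RNA. CPM are shares of a library total, of which Lars2 and Yam1 take the percentages given above in 3 vehicle mice. Of the 24 macrophage genes tested, 19 had a higher ratio, as had 17 of the 22 stromal genes and 55.0% of all genes. At an unadjusted p under 0.05, 4 macrophage genes (16.7%) and 1 stromal gene (4.55%) were higher, against 3.75% of all genes. The medians of these 2 lists were 0.081 and 0.084, and 0.126 and 0.141 without the Lars2-rich mice. Their part in the values of Mrc1 and Mmp3 was not tested.

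Across the whole lysosome and autophagy list, 29 of 43 genes were higher, beside 55.0% of all genes, with a median of 0.045. At an unadjusted p under 0.05, 4 were higher (9.3%, against 3.75% of all genes). Among well-counted members Rb1cc1, a scaffold of the autophagy initiation complex, was lowest at -0.2 ± 0.1 (SE). The list median in everolimus mice (-0.062 to 0.0742) spanned that in vehicle mice (-0.0618 to 0.012).

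Several lists of housekeeping and growth genes leaned to higher ratios by a few percent, and none held a called gene. Of all genes tested 55.0% were higher, as were 61.8% of those in the highest quartile of input level in CX5461 mice. Of 77 nuclear OXPHOS subunits 63 were higher (median 0.068, and 0.111 without the Lars2-rich mice), of 77 mitochondrial ribosomal proteins 56 (0.058), of 40 proteasome subunits 36 (0.066), of 38 DNA replication genes 33 (0.083) and of 24 aminoacyl-tRNA synthetases 20 (0.085). For DNA replication genes, the list median was -0.0163 to 0.195 in everolimus mice and -0.0264 to 0.0876 in vehicle mice, with 5 everolimus mice above every vehicle mouse. The other lists of this paragraph had fewer such mice, from 1 (mitochondrial ribosomal proteins) to 4 (proteasome subunits and synthetases). Without the Lars2-rich mice the DNA replication median was 0.062, with 29 of the 38 genes higher. The unfolded protein response list had 20 of 26 higher (0.1), ribosome biogenesis factors 54 of 72 (0.043) and glycolysis 19 of 25 (0.06, and 0.0983 without the Lars2-rich mice). The unfolded protein response median was 0.0612 without the Gm26870-rich mice. Proteasome subunits were higher for 29 of 40 genes without those mice and for 31 without the Lars2-rich mice. In each of these 8 lists the median change of input RNA lay below that of polysomal RNA, as for OXPHOS subunits (input -0.11, polysomal -0.046) and aminoacyl-tRNA synthetases (-0.17 and -0.1). Since all mRNAs share 1 scale, lower ratios of abundant mRNAs such as those of ribosomal proteins and higher ratios of the rest cannot be told apart here.

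Among their members, Ndufa12, a complex I subunit, had ratios of -0.422, -0.256 and -0.17 in everolimus mice and -0.835, -0.552 and -0.444 in vehicle mice. The groups did not overlap, and the change was 0.3 ± 0.0807 (SE, adjusted p = 0.495). Ndufa1, another complex I subunit, went the other way at -0.26 ± 0.0958 (SE). Psma3, a subunit of the proteasome core, was at 0.26 ± 0.0763 and Rpa3, part of the single-strand DNA binding complex RPA, at 0.31 ± 0.0788 (SE). Aimp2, a scaffold of the multi-synthetase complex, was above all vehicle mice in all 6 everolimus mice (0.27 ± 0.104, SE), while Nars was at -0.03 ± 0.057. Rrp15, a ribosome biogenesis factor, was the lowest of its list at -0.21 ± 0.088 (SE). The initiation factors, 35 genes, had a median of 0.036, and ran from Eif3j2 (-0.25) to Eif2b4 (0.18) among well-counted members.

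Some lists varied widely between mice. Replication-dependent histone genes, whose mRNAs end in a stem-loop in place of a poly(A) tail, were higher for 58 of 60 genes (median 0.14). At an unadjusted p under 0.05, 2 of the histone genes were higher (3.33%, against 3.75% of all genes). Their list median ran from -0.612 to 0.351 over everolimus mice and from -0.347 to -0.0943 over vehicle mice, so everolimus mice covered the whole vehicle range. With 1 mouse left out or another processing, the histone median ran from 0.0569 to 0.238. Histone genes have near copies, so reads may be shared among them. The 13 mRNAs encoded in mitochondria, which are not translated by cytosolic ribosomes, had a median change of -0.06 and low ratios in both groups, from -2.66 to -1.74 in everolimus mice and -2.35 to -1.78 in vehicle mice. Their median change was 0.0176 without the Lars2-rich mice. The p53 pathway list had 16 of 25 lower (median -0.069), with Bbc3, the BH3-only protein PUMA, at -0.32 ± 0.133 and Trp53 at 0.098 ± 0.0996 (SE).

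**Figure D4:**
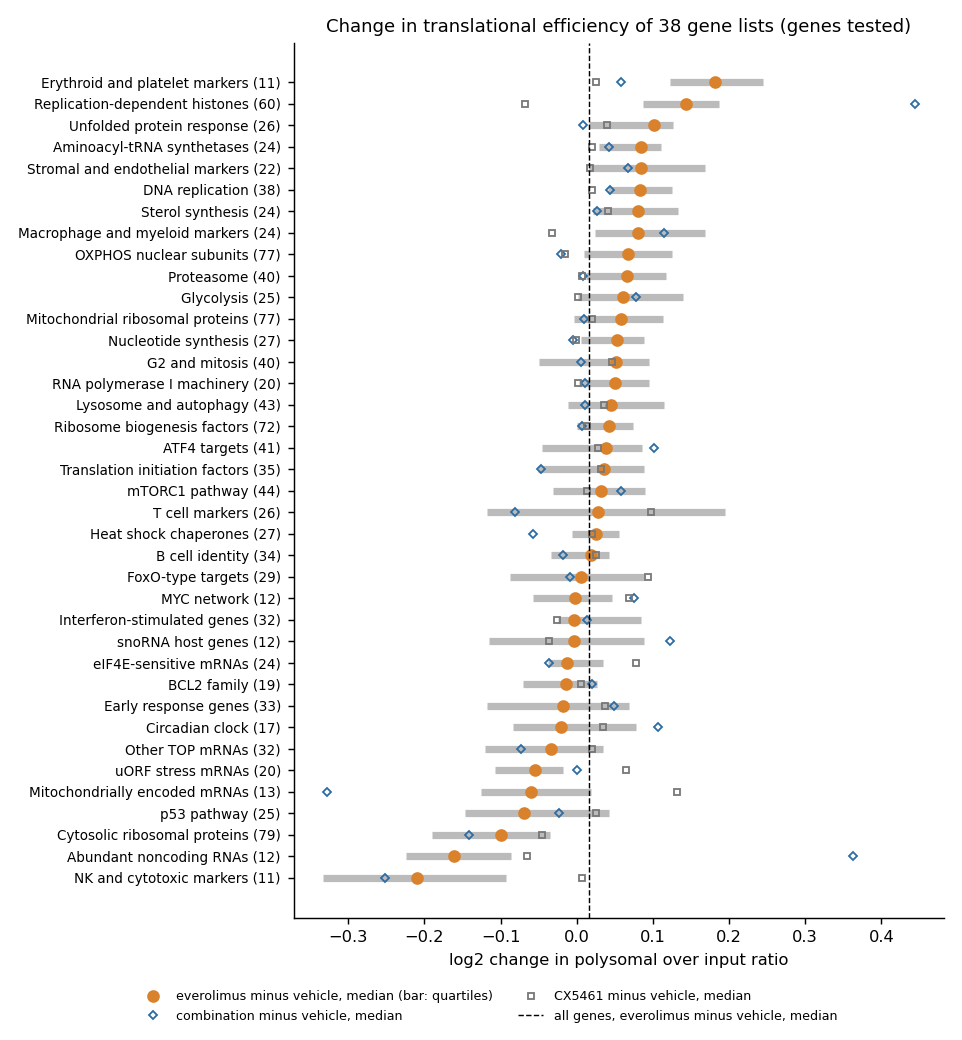
Median log2 change in the polysomal over input ratio (horizontal axis) for 38 gene lists, with the number of genes tested in brackets. Filled circles with grey bars are medians and quartiles for everolimus minus vehicle, diamonds and squares are medians for the combination and for CX5461 minus vehicle, and the dashed line is the median of all genes. Ribosomal proteins are near the low end at -0.099 and histones near the high end at 0.144.

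Gene classes set by the ratio in CX5461 mice, transcript lengths or input level showed shifts of a few hundredths. Genes were split by their polysomal over input ratio in the CX5461 mice, whose ratios do not enter the difference. The classes used all CX5461 mice, the rich mice 4 and 6 included. The quartiles, from the lowest to the highest ratio, had median changes of 0.032, 0.051, 0.024 and -0.03, so the mRNAs most loaded in CX5461 mice leaned lower in everolimus mice than in vehicle mice. In that top quartile 1635 genes were higher and 2470 lower. The median ratio of the quartile was 0.299, 0.373 and 0.5 in everolimus mice and 0.373, 0.418 and 0.541 in vehicle mice, which overlap. Among genes of at least 4 log2 CPM the 4 medians were 0.055, 0.042, 0.022 and -0.039. Over all genes they were 0.052, 0.065, 0.033 and -0.04 without the Lars2-rich mice, and 0.048, 0.04, 0.0024 and -0.064 without the Gm26870-rich mice.

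Protein-coding genes were also ordered by the length of their 3′ untranslated region (GENCODE, GRCm38). Medians from the shortest to the longest quartile were 0.04, 0.037, 0.016 and -0.011, and among genes of at least 4 log2 CPM 0.049, 0.039, 0.015 and -0.012. Over all protein-coding genes they were 0.068, 0.048, 0.016 and -0.019 without the Lars2-rich mice, and 0.037, 0.024, -0.0086 and -0.043 without the Gm26870-rich mice. Coding length gave 0.016, 0.017, 0.018 and 0.029, and 5′ untranslated length 0.028, 0.026, 0.015 and 0.014. These small values depended on which mice were in the fit. Without the Lars2-rich mice, coding length gave 0.018, 0.017, 0.025 and 0.061. Without the Gm26870-rich mice, 5′ length gave 0.018, 0.0075, -0.0053 and -0.0076. Per mouse, the longest 3′ quartile had a median ratio of -0.00862 to 0.172 in everolimus mice and 0.0785 to 0.175 in vehicle mice. Splitting by input level in CX5461 mice changed the width far more than the centre, with quartiles of -0.23 and 0.28 in the lowest class and -0.038 and 0.086 in the highest.

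By annotated gene type, 12590 protein-coding genes had a median of 0.021 (0.0024 without the Gm26870-rich mice), 1422 pseudogenes 0.0005 and 856 long noncoding RNAs -0.0011. The median of all genes tested, 0.016, was 0.0002 with RLE scaling factors. It was 0.00167 without the Gm26870-rich mice, who include CX5461 mice 4 and 6. Without everolimus mouse 2 alone it was 0.0193. The part of each mouse in this shift was not tested. Small RNAs that are not translated lay lower, with -0.28 for 135 snoRNA or scaRNA genes and -0.41 for 47 snRNA genes. Without the Lars2-rich mice these were -0.018, with 65 genes higher and 70 lower, and -0.21. Their ratios varied between mice by more than that, and the snRNA median ran from -2.48 to 0.223 in everolimus mice and from -1.25 to 0.0756 in vehicle mice. The 122 immunoglobulin V segments, which mark individual B cell clones, had a median of 0.15.

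**Figure D5:**
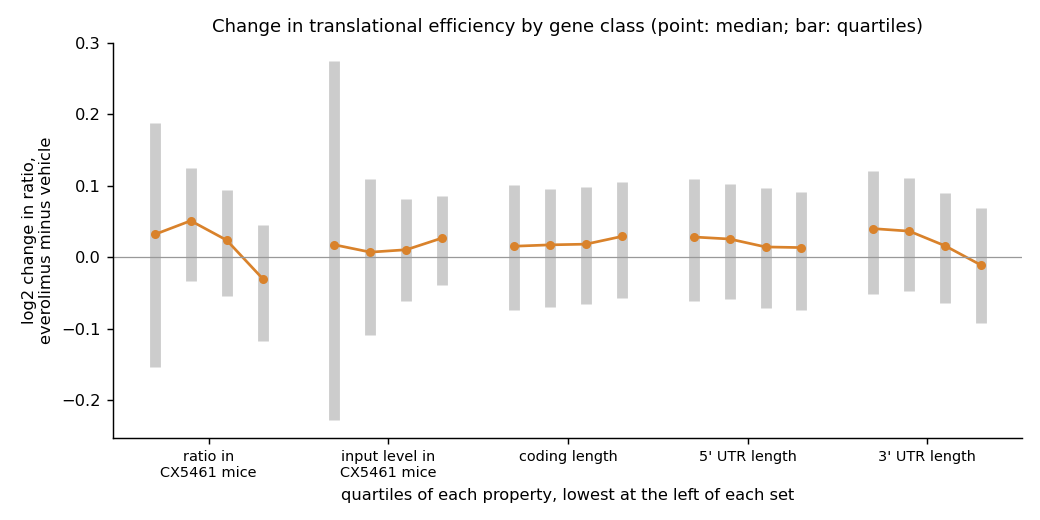
Median (points) and quartiles (bars) of the log2 change in ratio, everolimus minus vehicle (vertical axis), by quartile of 5 gene properties, lowest quartile at the left of each set. The median is 0.04 for the shortest and -0.011 for the longest 3′ untranslated regions, and -0.03 in the quartile of highest ratio in CX5461 mice.

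Everolimus was also set against the other drug groups. By edgeR, 0 genes passed the adjusted threshold for everolimus minus the combination, with 738 higher (4.49%) and 1286 lower (7.83%) at an unadjusted p under 0.05, and 0 for everolimus minus CX5461, with 663 higher (4.04%) and 1035 lower (6.3%). Without the Gm26870-rich mice, edgeR had 838 genes higher and 855 lower against the combination at that unadjusted p. Against CX5461 it then had 724 higher and 587 lower, of 16655 tested. With all mice, DESeq2 called 38 and 21 genes in these comparisons. Ribosomal protein genes had a median of 0.0072 against the combination, with 3 higher and 2 lower at that unadjusted p, and of -0.083 against CX5461, with 0 higher and 15 lower. Side by side, the changes of this list relative to the same vehicle mice had medians of -0.099 under everolimus, -0.14 under the combination and -0.045 under CX5461. Histone genes had -0.28 against the combination, with 17 of 60 lower and 0 higher at that p, and OXPHOS subunits had 0.077 against the combination and 0.092 against CX5461, with 10 and 11 of 77 genes higher and 0 lower. Per mouse, ribosomal protein medians ran from -0.872 to -0.484 under everolimus and -0.869 to -0.533 under CX5461. Histone medians ran from -0.612 to 0.351 under everolimus and -0.137 to 0.643 under the combination. OXPHOS medians, -0.0144 to 0.163 under everolimus, also overlapped with those of the combination (-0.128 to 0.0294) and CX5461 (-0.283 to 0.139). All these list values are with the rich mice included.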

How the data were processed

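Cytoplasmic input RNA and polysomal RNA of each mouse were depleted of ribosomal RNA and sequenced. The authors deposited raw read counts by gene symbol, with 1 table per fraction. Reads were aligned with TopHat2 to GRCm38 and counted with HTSeq, per the submitters' processing notes; versions, annotation and strand setting are not given in the sources used here. Reads that fell in no gene (5.79% to 26% of the counted reads of a library) or in several (1.86% to 10.1%) were left out.

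Genes in both acute tables were fitted with edgeR 4.0.16 (R 4.3.3; TMM factors, filterByExpr, quasi-likelihood test) over all 48 acute libraries, with a term for each mouse and a fraction by treatment term, which is the translational efficiency. Adjustment was by Benjamini-Hochberg over all genes tested, with a threshold of 0.05. A standard error is the log2 change divided by the root of its F value. Ratios per mouse are differences of log2 CPM with a prior count of 2. Alternatives were DESeq2 1.42.0, limma 3.58.1, other scaling, no count filter, other blocks and mice left out. The code was tested on simulated data.

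The input and polysomal libraries of a mouse deviated together (mean r of 0.4, best match in 22 of 24 mice), so they were paired. Mouse numbers do not pair treatments. P-values measure the spread between mice. Per-mouse summaries were compared by exact permutation (scipy 1.17.1). Gene types, lengths and positions came from GENCODE vM21, and annotated starts from RefSeq.

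The comparison, the 38 gene lists and the classes were chosen with earlier results of these data known. As no gene passed, the genes named are, among those averaging 2 log2 CPM or more in both fractions, the 10 with the smallest unadjusted p in each direction (skipping 4 known only by a clone number) and the highest and lowest member of each list used, with 17 fixed genes; 1 such list member is not reported here. Genes called in 1 fraction are named from those calls. Lists carry no test.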

Additional observations from a re-analysis of the deposited data

Results flagged for a closer look

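In groups of 6 mice, 7 of 178 groups had a mouse far from the other 5, and chance flags about 1 in 20 groups. For the median ratio of the ribosomal protein genes this was everolimus mouse 4, at -0.484 against -0.872 to -0.763 in the other everolimus mice, and vehicle mouse 4, at -0.871 against -0.625 to -0.52 in the other vehicle mice. Everolimus mouse 4 also stood out for Rps12, at -0.623 against -1.05 to -0.922. Vehicle mouse 4 stood out for the nuclear OXPHOS subunits, at -0.103 against 0.000672 to 0.0439. The interquartile range over genes was the highest of each group in these 2 mice, 0.7 in everolimus mouse 4 and 0.714 in vehicle mouse 4. Everolimus mouse 2, rich in Gm26870 and Gm10800 input reads, had a correlation of polysomal with input RNA of 0.969, against 0.977 to 0.98. Eif3j2 in everolimus mouse 6 was at 0.0117 against 0.437 to 0.613, and Ccnd3 in vehicle mouse 6 at -0.294 against -0.171 to -0.118. The cause of these values was not tested.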

How the results depend on the processing

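Counts of called genes depended on the tool. For everolimus against vehicle, DESeq2 called 6 genes and the test without a count filter 78; against the combination these were 38 and 284, and against CX5461 21 and 325. The 0 of the edgeR test held in the other 21 alternatives for everolimus against vehicle. A replicate block on mouse number called 1 gene against the combination and changed no other count, although the numbers do not pair mice across treatments (mean r of -0.0643 over 6 pairs). Against CX5461, limma called 1 gene, and leaving out 1 mouse in turn gave 0 to 1. The list median of the mTORC1 pathway was 0.00198 without the Gm26870-rich mice and ran from 0.00705 to 0.0524 with 1 mouse left out, and that of sterol synthesis was 0.0431 without those mice. Over the 23 alternatives the medians ran from 0.00112 to 0.0541 for initiation factors, 0.0105 to 0.0612 for ATF4 targets, -0.0978 to -0.0268 for mRNAs with upstream reading frames, 0.0217 to 0.0624 for lysosome genes and 0.0569 to 0.238 for histones. They changed sign for mitochondrially encoded mRNAs (-0.151 to 0.0246), T cell markers (-0.038 to 0.0733), eIF4E-sensitive mRNAs (-0.0284 to 0.00519), B cell identity (-0.0159 to 0.0373) and heat shock chaperones (-0.000797 to 0.0437), and for the 7 lists described as close to 0. The ribosomal protein median stayed below 0 in all 23 alternatives, from -0.149 to -0.043.

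The difference in interquartile range ran from -0.0185 to 0.0152 with 1 mouse left out, had p = 0.812 over same-number pairs (exact sign-flip permutation), and that in correlation was 0.000127 without the mice rich in either read class. Of 69 named genes, 12 changed sign somewhere, 11 of them with a change under 0.1 and mt-Atp8 with 0.17. Myc was at -0.00768 with DESeq2, -0.00757 with RLE factors, -0.0329 without the Gm26870-rich and -0.000622 without the Lars2-rich mice, Rpl32 at -0.00454, -0.00456 and -0.0254 in the first 3 of these. Eif4ebp1 was at -0.0122 with DESeq2 and RLE, -0.00178 with the 2 groups alone, -0.0337 without the Lars2-rich mice and -0.00782 without vehicle mouse 6 and combination mouse 3. Larp1 was at 0.0392 and 0.0072 in these last 2, and Pfkl at 0.0398 and 0.00116, with 0.00389 without the Gm26870-rich mice. Ern1 was at 0.00355 with no count filter and 0.0117 without vehicle mouse 6 and combination mouse 3.

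With 1 mouse left out, values ran from -0.0205 to 0.0506 for Myc, -0.0887 to 0.0035 for Eef1a1, -0.0763 to 0.0674 for Rpl32, -0.0303 to 0.0506 for Eif4ebp1, -0.0924 to 0.00527 for Odc1, -0.13 to 0.000258 for Ccnd3, -0.0442 to 0.00731 for Larp1, -0.0505 to 0.00772 for Nars, -0.116 to 0.0211 for Pfkl, -0.0316 to 0.403 for mt-Atp8, -0.168 to 0.0952 for Hist2h3c2 and -0.0616 to 0.017 for Ern1. The cause of these shifts was not tested. In genes of at least 4 log2 CPM the median standard error was 0.085, which limits what can be seen.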

Other observations

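Of the gene lists not yet described, those of metabolism and cell division leaned higher in ratio, everolimus minus vehicle, by edgeR and with no gene past the adjusted threshold. For comparison, 55.0% of all genes tested were higher, and 61.8% of those in the highest quartile of input level in CX5461 mice. Sterol synthesis genes were higher for 19 of 24 (median 0.081), nucleotide synthesis genes for 21 of 27 (0.053), genes of G2 and mitosis for 26 of 40 (0.051) and the RNA polymerase I machinery for 15 of 20 (0.051). Without the mice rich in Gm26870 and Gm10800 reads the medians of the last 2 lists were 0.0258 and 0.0312. Heat shock chaperones were higher for 19 of 27 (0.026). Lists close to 0 were interferon-stimulated genes (median -0.0033), the MYC network (-0.0023), FoxO-type targets (0.0049), the BCL2 family (-0.015), early response genes (-0.018), the circadian clock (-0.021) and snoRNA host genes (-0.0039).

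Marker lists of host cells went in different directions. NK and cytotoxic markers were lower for 10 of 11 genes (median -0.21), at a summed input level of only 11.1 to 18.6 CPM in everolimus mice and 14.3 to 20.3 CPM in vehicle mice. Erythroid and platelet markers were higher for 10 of 11 (0.18), and their summed input level ran from 832 to 6630 CPM in everolimus mice and from 1210 to 2880 CPM in vehicle mice. T cell markers (26 genes, 0.028) and B cell identity genes (34 genes, 0.019) lay near the median of all genes. Abundant noncoding RNAs were lower for 10 of 12 (-0.16), and relative to the same vehicle mice their median was 0.36 under the combination.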
